A study of Mus musculus with 12 samples.

Results

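Loss of the second Apc copy was examined by setting the 4 libraries of Apc_KO mice against the 4 libraries of Apc_HET mice, 8 of the 12 libraries of the study. All libraries hold RNA of Lgr5-GFP+ cells sorted by FACS from the intestinal epithelium of C57BL/6 mice. The Apc_HET mice were ApcFlox/+, the Apc_KO mice ApcFlox/Flox, and the Apc_WT mice, used here for the first-copy step, Apc+/+. Every mouse, controls included, carried the Lgr5-CreERT2-ires-eGFP allele and received 1 tamoxifen injection followed by tamoxifen diet for 5 days, and cells were taken at day 15. The Cre recombinase sits in the Lgr5 gene, so recombination was driven in cells that use Lgr5, and the same allele supplied the GFP of the sort. A cell of Apc_HET is designed to keep 1 functional copy of Apc and a cell of Apc_KO to keep 0. The labels name no sex, age or batch, and p-values measure the spread between these libraries. Of 14082 gene symbols used, 12962 reached 1 FPKM, a read level scaled to transcript length and library size, in at least 4 of the 12 libraries and were tested. The 3 Y-linked genes looked up were each at 1 FPKM or more in all 12 libraries.

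APC is a scaffold of the cytoplasmic complex that marks beta-catenin for destruction. Without it, beta-catenin accumulates, enters the nucleus with TCF and LEF proteins and switches on Wnt target genes, among them inhibitors that act back on the pathway. At the crypt base of the intestine Wnt signals maintain the Lgr5+ stem cell, and loss of Apc in this cell is known to start adenomas in mice.

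Total FPKM per library ran from 391710 to 518428 over the 8 libraries. The absolute depth is unknown. Relative to Apc_HET replicate 1, the spacing of low values put the depth of the other Apc_HET libraries at 0.853 to 1.02 and that of the Apc_KO libraries at 0.497 to 0.877, with a doubled value nearly as frequent in Apc_KO replicates 1 and 3. Pan-epithelial markers were present in every library, with a summed level of 2472 to 3081 FPKM in Apc_HET and 2400 to 3938 FPKM in Apc_KO over 9 of 9 markers. Of 6 leukocyte markers 3 were found, with a summed level of 4.24 to 5.02 FPKM in Apc_HET and 0.455 to 2.30 FPKM in Apc_KO. Of 7 markers of stroma and endothelium, Col1a1 and Pdgfrb were found, and they summed to 4.58 to 9.10 FPKM in Apc_HET and 0.304 to 8.32 FPKM in Apc_KO. Some libraries stood apart. Apc_KO replicates 1 and 4 had array weights of 0.207 and 0.135, against 1.25 and 1.19 in Apc_KO replicates 2 and 3, where a low weight marks a library far from the fitted values. Apc_HET replicates 1 to 3 held collagen and periostin signal that Apc_HET replicate 4 lacked, as described with the matrix genes.

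The targeted gene itself did not fall. Apc (chromosome 18, 34220297 to 34322190 on GRCm38) stood at 9.81, 10.96, 10.7 and 12.5 FPKM in Apc_HET replicates 1 to 4 and at 17.3, 12.9, 15.3 and 9.94 FPKM in Apc_KO. The groups overlapped through Apc_KO replicate 4. The mean log2 difference was 0.28 (exact two-sided permutation p = 0.171, smallest possible 0.0286), and without Apc_KO replicate 4 it was 0.42 (exact permutation p = 0.0286, the smallest that 3 against 4 gives here). The tables hold 1 value per gene and none per exon, so the removal of the floxed part was not measured.

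Loss of the second copy moved a large part of the transcriptome. Of all genes tested, 41.8% were called between Apc_KO and Apc_HET at an adjusted p under 0.05, 2960 higher (22.8%) and 2453 lower (18.9%) in Apc_KO. By at least 2-fold, 1338 rose and 998 fell, and by at least 8-fold, 178 rose and 80 fell. The libraries of the 2 genotypes did not overlap for 5117 genes (39.5%). For the first copy, Apc_HET against Apc_WT, limma called 0 genes, with 561 at an unadjusted p under 0.05 and a smallest adjusted p of 0.119, and the libraries did not overlap for 788 genes (6.08%). Counts of 1 to 4 genes came from some other settings. The median size of the difference over all genes was 0.37 on the log2 scale for the second copy and 0.12 for the first.

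A missing call for the first copy does not show that nothing moved, so the difference between the steps was itself tested. This departure, Apc_KO minus 2 times Apc_HET plus Apc_WT, is 0 for a gene that moves equally far at each step, and it was called for 2249 genes (17.4%). Of the 2336 genes called between Apc_KO and Apc_HET at 2-fold or more, 1692 also departed and 644 did not. A gene was placed in the second-copy class when it changed at least 2-fold with the second copy, departed, and had a 95% interval of Apc_HET minus Apc_WT wholly within 2-fold. That class held 904 genes higher (6.97% of those tested) and 602 lower (4.64%) in Apc_KO. For the class the first step is bounded, not shown to be 0. The bound is weak for genes far below 1 FPKM in Apc_WT and Apc_HET, since 1 FPKM is added before the log. With 0.1 FPKM added in its place, the class held 604 genes higher and 574 lower. Both comparisons use the Apc_HET libraries, so an error in these moves the steps in opposite directions. With Apc_HET replicate 4 as the only Apc_HET library, a setting chosen after seeing the data, the class held 148 genes higher and 53 lower. In that setting the lone library is assumed to vary like the other genotypes.

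**Figure D1:**
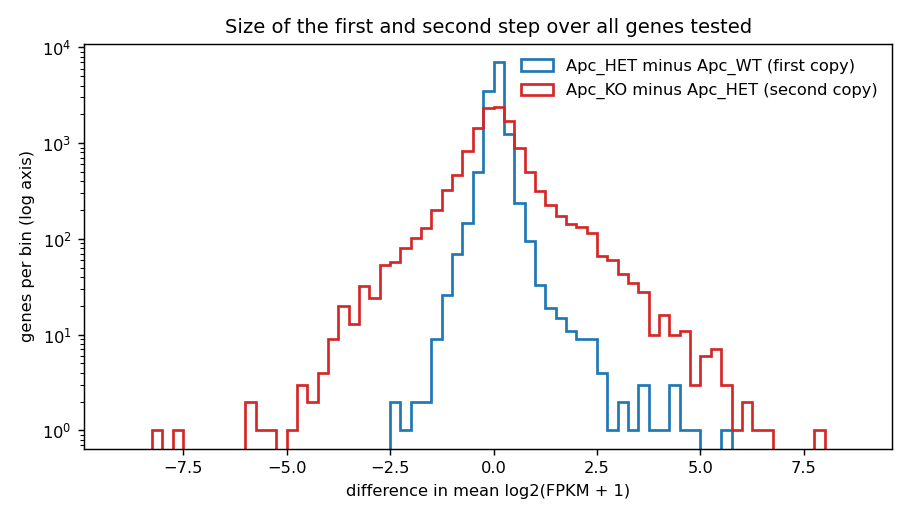
Number of genes (log axis) by the difference in mean log2(FPKM + 1), for Apc_HET minus Apc_WT (blue) and Apc_KO minus Apc_HET (red), over 12962 genes. The second step is the wider distribution, with a median size of 0.37 against 0.12, and the blue tail to the right includes Postn and Col5a1, high in Apc_HET replicates 1 to 3.

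Inhibitors that the Wnt pathway is known to switch on were among the sharpest rises. Notum (chromosome 11, 120653788 to 120661193), a secreted enzyme that removes the lipid from Wnt proteins, stood at 0.303, 0.168, 0.107 and 0.238 FPKM in Apc_HET replicates 1 to 4 and at 348, 232, 307 and 324 FPKM in Apc_KO. All 4 Apc_KO libraries lay far above all Apc_HET libraries, which in turn were at the level of Apc_WT, 0.233 ± 0.119 FPKM (SD, n = 4). The log2 difference was 7.97 (SE 0.13, adjusted p = 5.53e-12) for the second copy and -0.03 for the first, with a 95% interval of -0.33 to 0.26. Apc_HET and Apc_WT lay below 1 FPKM, where the 1 FPKM added before the log keeps the first difference small. Nkd1, an inhibitor that binds Dishevelled, read 0.917, 1.09, 1.28 and 0.561 FPKM in Apc_HET and 111, 70.2, 91.5 and 123 FPKM in Apc_KO. It rose by 5.65 (SE 0.17) on the log2 scale without overlap. Wif1 and Dkk3, secreted Wnt antagonist family members, and Apcdd1, a membrane inhibitor, were also in the second-copy class; these were named with their values already seen, as were Znrf3, Tnfrsf19 and Bambi. Their log2 differences on the log2(FPKM + 1) scale understate the ratio, since Wif1 averaged 0.186 FPKM in Apc_HET and 28.4 FPKM in Apc_KO. Dkk3 averaged 0.0708 and 30.5 FPKM. For Bambi the deposited locus spans 53% of the gene.

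Of 20 feedback inhibitors listed, 13 were tested, 9 rose, 2 fell and 2 were not called, with a median log2 difference of 1.30 against 0.04 over all genes. For the first copy the list's median was 0.11 against 0.07 over all genes. The departure was called for 9 of the 13, and 4 of the 13 passed the filter only with Apc_KO libraries. Per library, the list's median log2 level lay between 2.65 and 2.95 in Apc_HET and between 4.31 and 4.87 in Apc_KO. Sfrp5, a secreted Wnt-binding antagonist, went the other way. It read 24.6, 21.5, 20.9 and 15.5 FPKM in Apc_HET and 0.435, 1.53, 2.55 and 0.527 FPKM in Apc_KO, and fell by 3.34 (SE 0.27, adjusted p = 1.28e-06).

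Axin2 rose less and in smaller steps. Axin2, a scaffold of the destruction complex, widely used as a Wnt reporter gene, read 65.0, 68.6, 74.0 and 56.1 FPKM in Apc_HET and 153, 101, 131 and 127 FPKM in Apc_KO, against 49.6 ± 6.29 FPKM (SD, n = 4) in Apc_WT. The Apc_KO libraries were all above the Apc_HET libraries, and it rose by 0.94 (SE 0.14, adjusted p = 0.000204). The first step was 0.40 (95% interval 0.09 to 0.71, not called after adjustment), and a departure from equal steps was not shown (adjusted p = 0.171). Axin2 is therefore not in the second-copy class.

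The nuclear factors that carry the signal changed in part. Lef1, chosen from its values, is a DNA-binding partner of beta-catenin. It read 0.291, 0.622, 0.621 and 0.505 FPKM in Apc_HET and 25.9, 23.7, 21.2 and 18.5 FPKM in Apc_KO, a rise of 3.95 (SE 0.18). Tcf7, its relative, read 10.9, 11.1, 10.4 and 10.1 FPKM against 42.3, 34.8, 40.9 and 38.7 FPKM, also without overlap. Sp5, a target that encodes a transcription factor, read 16.2 to 29.4 FPKM in Apc_HET and 59.0 to 88.9 FPKM in Apc_KO. Among 30 tested genes of the destruction complex and nuclear Wnt factors, 12 rose, 2 fell and 16 were not called, with 3 departures. The corepressors moved apart: Tle1 rose by 1.79 (SE 0.12), from 22.8 to 28.5 FPKM in Apc_HET to 77.1 to 113 FPKM in Apc_KO, and Tle4 fell by 1.35 (SE 0.16). Over 29 other Wnt targets, 9 rose, 6 fell and 14 were not called, with a median of 0.08. Over all genes 22.8% were higher and 18.9% lower, and 2 of the 29 passed the filter only with Apc_KO libraries. Prox1, a homeobox gene that marks adenomas, read 0.992, 1.005, 4.08 and 0.993 FPKM in Apc_HET and 170, 95.7, 136 and 69.7 FPKM in Apc_KO and led the list. Nos2, which encodes inducible nitric oxide synthase, read 17.7, 23.3, 83.8 and 5.60 FPKM in Apc_HET and 0.873 to 4.41 FPKM in Apc_KO, and with Apc_HET replicate 4 alone it was no longer called (log2 difference -1.12, adjusted p = 0.133).

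Among 24 tested ligands and receptors, 10 rose, 7 fell and 7 were not called, beside 22.8% higher and 18.9% lower over all genes. Of the 24, 6 passed the filter only with Apc_KO libraries, where they had to be high. Wnt6, a ligand whose deposited locus spans 43.4% of the gene, read 0.202 to 0.922 FPKM in Apc_HET and 38.3, 11.96, 19.7 and 35.7 FPKM in Apc_KO, a rise of 4.00 (SE 0.31). Fzd5, a Wnt receptor of the intestinal epithelium, fell by 1.84 (SE 0.26), from 39.7 to 42.8 FPKM in Apc_HET to 4.98 to 16.2 FPKM in Apc_KO. The ligand rose and the receptor fell without overlap between the genotypes.

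**Figure D2:**
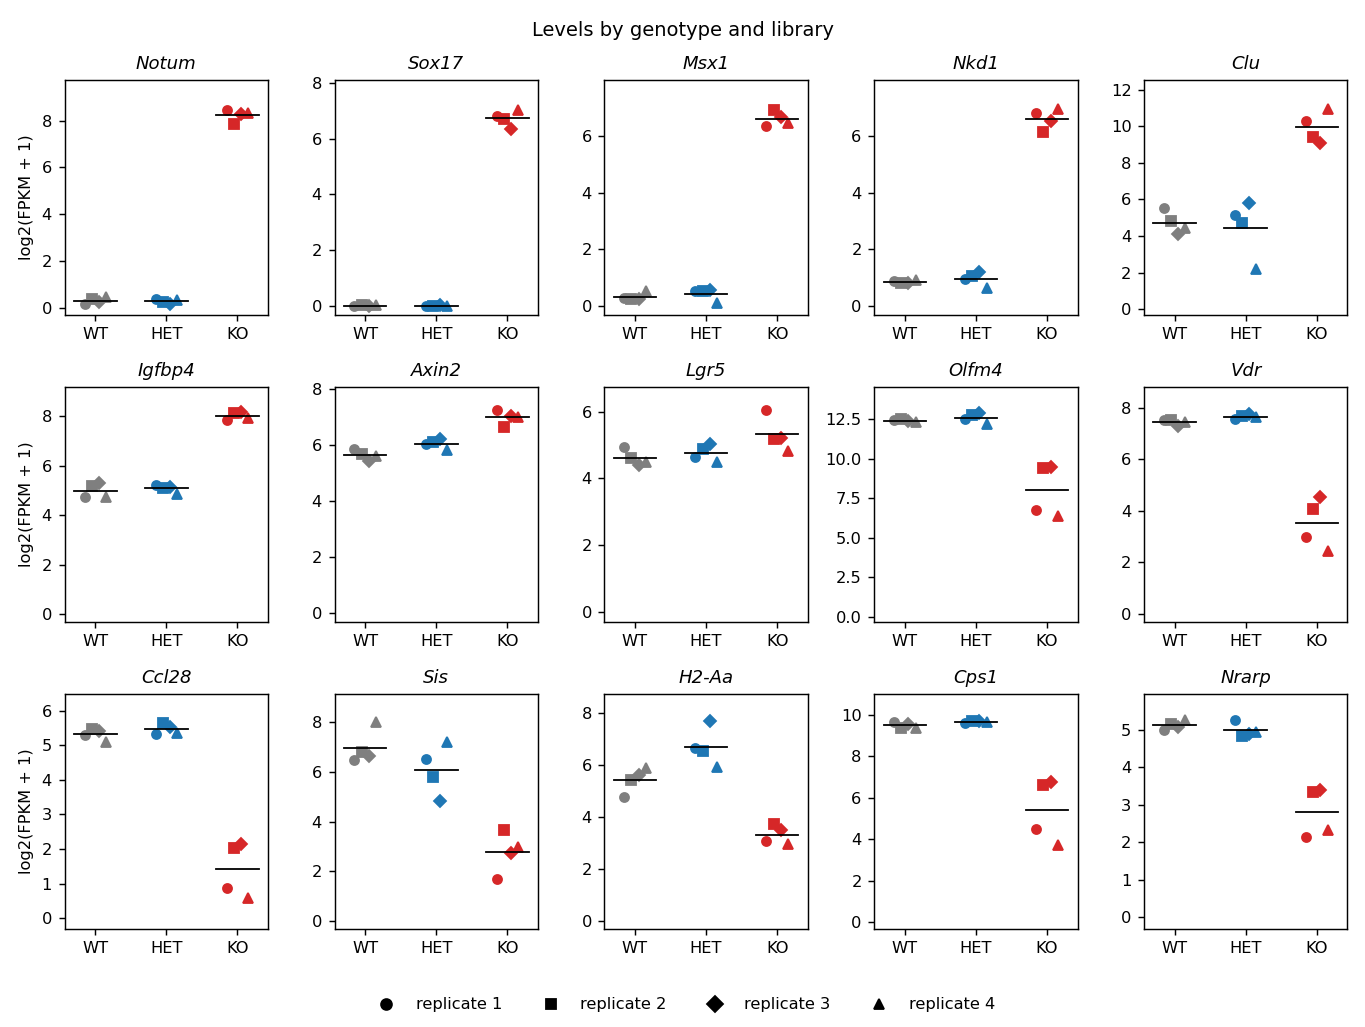
Levels of 15 genes as log2(FPKM + 1) in every library of Apc_WT (grey), Apc_HET (blue) and Apc_KO (red), with marker shapes for replicate numbers and a black line at the mean of 4. Notum, Sox17, Msx1 and Nkd1 sit low in both other genotypes and high in Apc_KO, whereas Axin2 rises less, Lgr5 overlaps between Apc_HET and Apc_KO, H2-Aa has its highest mean in Apc_HET, and Olfm4, Cps1 and Nrarp are lowest in Apc_KO replicates 1 and 4.

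Crypt base stem cell markers did not move as one group. Of 29 tested, 10 rose, 5 fell and 14 were not called, with a median of 0.19. Over all genes 22.8% were higher and 18.9% lower, so the share that fell was near that over all genes. Lgr5, the receptor for R-spondins and the gene of the sort, read 24.2, 28.3, 31.6 and 21.3 FPKM in Apc_HET and 65.4, 35.4, 36.3 and 27.0 FPKM in Apc_KO. The groups overlapped, and the difference of 0.56 (SE 0.23) was not called (adjusted p = 0.0734), though it was called without Apc_KO replicate 4 (0.73, adjusted p = 0.0210) and with library weights (0.47, adjusted p = 0.0372). Igfbp4, a binding protein for insulin-like growth factors, read 35.9, 33.7, 34.8 and 28.0 FPKM in Apc_HET and 230, 277, 291 and 243 FPKM in Apc_KO. It rose by 2.94 (SE 0.15, adjusted p = 3.12e-08) and belonged to the second-copy class.

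Olfm4 (chromosome 14, 80000302 to 80023141), a secreted glycoprotein that marks stem cells of the small intestine and is known to respond to Notch, fell most of the stem cell list. It read 5779, 7078, 7654 and 4693 FPKM in Apc_HET and 106, 674, 702 and 81.7 FPKM in Apc_KO. Every Apc_KO library was lower, with replicates 1 and 4 lower than replicates 2 and 3, and it fell by 4.60 (SE 0.65, adjusted p = 0.000124). The departure was called (adjusted p = 0.0115), but the interval of the first step, -1.24 to 1.61, is too wide for the second-copy class. Ascl2, a transcription factor of the crypt base chosen from its values, read 17.1 to 22.3 FPKM in Apc_HET and 12.9 to 25.1 FPKM in Apc_KO and was not called (adjusted p = 0.345).

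Of 29 Notch pathway genes tested, 8 rose, 6 fell and 15 were not called, close to the 22.8% and 18.9% over all genes, and the median of 0.00 changed sign in 7 of the other settings. Nrarp, a feedback inhibitor that Notch switches on, read 37.4, 27.4, 28.7 and 29.9 FPKM in Apc_HET and 3.42, 9.18, 9.54 and 4.05 FPKM in Apc_KO, a fall of 2.18 (SE 0.26). Dtx3, of the Deltex family, rose by 2.36 (SE 0.20), from 2.72 to 3.33 FPKM to 15.6 to 25.1 FPKM. The genotypes did not overlap for either gene.

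Transcription factors of other developing tissues appeared. Sox17 (chromosome 1, 4490928 to 4497426), a factor of early endoderm and of blood vessels, read 0.00516, 0.00571, 0.0182 and 0.00507 FPKM in Apc_HET and 111, 104, 80.9 and 129 FPKM in Apc_KO. All Apc_HET libraries were near 0 and all Apc_KO libraries were high. The log2 difference was 6.71 (SE 0.13, adjusted p = 1.04e-11) with a first step of -0.01 (95% interval -0.29 to 0.28). At levels this far below 1 FPKM, the 1 FPKM added before the log holds the first step near 0. Msx1, a homeobox factor of limb and tooth buds, read 0.429, 0.459, 0.487 and 0.0679 FPKM against 81.0, 120, 101 and 88.0 FPKM. Gbx2, a homeobox factor of the hindbrain border, read 0.0272 to 0.230 FPKM against 76.7, 40.2, 45.0 and 66.9 FPKM. The list held 98 such genes, of which 31 were expressed enough to be tested: 19 rose, 5 fell and 7 were not called, with a median of 1.12 and 16 departures. Genes at 0 in Apc_WT and Apc_HET could pass the filter only through Apc_KO, and 12 of the 31 passed only with Apc_KO libraries. The filter thus favours rises, so the counts, the median and the departures have no weight as a result about the family. Barx2, a homeobox factor of the gut and other epithelia, fell by 2.94 (SE 0.25), from 9.57 to 19.0 FPKM in Apc_HET to 0.392 to 1.86 FPKM in Apc_KO.

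The remaining genes of the largest rises were of mixed kinds. Asb4, a substrate adaptor of ubiquitin ligases, read 0.120 to 0.286 FPKM in Apc_HET and 51.0 to 59.8 FPKM in Apc_KO. Wfdc18, a secreted protein with a whey acidic protein domain, read 0.0727 to 0.695 FPKM against 83.5, 60.2, 70.9 and 344 FPKM. Ctse, the protease cathepsin E, read 0.0121 to 0.194 FPKM against 42.6 to 136 FPKM, with a deposited locus over 36.6% of the gene. None of the 3 overlapped, and all 3 were in the second-copy class. Spock2, a matrix proteoglycan, rose by 5.37 (SE 0.26). Ecscr, an endothelial cell surface gene, rose by 5.29 (SE 0.53), with 0.665 to 2.81 FPKM in Apc_HET and 98.6, 70.8, 57.8 and 353 FPKM in Apc_KO. Bex1, named in the ileum and colon list, rose by 5.31 (SE 0.21), from 1.34 to 2.16 FPKM to 90.9 to 161 FPKM. Slc38a3, an amino acid transporter, read 0.0496 to 0.322 FPKM against 84.4, 220, 15.3 and 11.4 FPKM, but its locus spans only 4.4% of the gene.

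Many genes known from the fetal and the regenerating intestinal epithelium rose. Of 32 tested, 22 rose, 2 fell and 8 were not called, with a median of 1.85, and the departure was called for 20. Of the 32, 7 passed the filter only with Apc_KO libraries. Clu, the secreted chaperone clusterin that marks revival stem cells, read 35.1, 24.9, 54.7 and 3.50 FPKM in Apc_HET and 1246, 692, 555 and 2012 FPKM in Apc_KO. It rose by 5.49 (SE 0.68) without overlap, but the low Apc_HET replicate 4 widened the interval of the first step to -1.75 to 1.20. Ly6a (Sca-1), chosen from its values, read 0.685 to 1.59 FPKM in Apc_HET and 9.63, 4.11, 4.27 and 11.5 FPKM in Apc_KO. Birc3, an inhibitor of apoptosis, fell by 0.80 (SE 0.13), from 8.81 to 13.7 FPKM to 5.24 to 6.73 FPKM. The list's per-library median ran from 2.27 to 3.25 in Apc_HET, lowest in replicate 4, and from 4.70 to 5.60 in Apc_KO, highest in replicate 4.

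BMP and TGF-beta pathway genes, which in the gut oppose stem cell renewal, changed widely. Of 40 tested, 25 rose, 6 fell (3 without Apc_HET replicate 2) and 9 were not called, with a median of 0.82 and 18 departures. Of the 40, 8 passed the filter only with Apc_KO libraries. Ltbp4, which holds latent TGF-beta in the matrix, read 0.273, 0.196, 0.878 and 0.213 FPKM in Apc_HET and 16.0, 12.3, 10.2 and 26.4 FPKM in Apc_KO. It rose by 3.57 (SE 0.25) without overlap. Bmp3, an antagonist within the BMP family, fell by 2.28 (SE 0.20), from 6.08 to 9.65 FPKM to 0.248 to 1.04 FPKM. Both were in the second-copy class.

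In the list of EGF receptor family genes, ligands and related growth factor genes, 13 of 35 rose, 6 fell and 16 were not called. Of the 35, 5 passed the filter only with Apc_KO libraries. Etv5, an ETS factor that responds to receptor kinase signals, read 2.46, 3.01, 3.01 and 1.98 FPKM in Apc_HET and 91.0, 56.5, 47.4 and 69.2 FPKM in Apc_KO. It rose by 4.18 (SE 0.18, adjusted p = 1.51e-08). Lrig3, of a family of membrane regulators of receptor kinases, fell by 2.28 (SE 0.18), from 19.3 to 29.0 FPKM to 3.01 to 6.20 FPKM. Among 14 Eph receptors and ephrins, which sort cells along the crypt, 3 rose, 4 fell and 7 were not called, beside 22.8% higher and 18.9% lower over all genes. Efna3, a ligand, fell by 1.71 (SE 0.12) and Epha7, a receptor, rose by 2.14 (SE 0.29).

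Matrix and adhesion genes rose in part and carried a library effect. Of 50 tested integrins, laminins, collagens and matrix proteases, 29 rose, 6 fell and 15 were not called, with a median of 0.86, and 14 of the 50 passed the filter only with Apc_KO libraries. Plat, tissue plasminogen activator, read 3.44, 1.98, 8.61 and 0.238 FPKM in Apc_HET and 130, 86.7, 68.7 and 187 FPKM in Apc_KO, a rise of 4.97 (SE 0.56). Apc_HET replicates 1 to 3 held high values of genes of fibroblasts and matrix that Apc_HET replicate 4 did not. Postn, which encodes periostin and was chosen from its values, was at 276, 401 and 688 FPKM in Apc_HET replicates 1 to 3, listed at 0 in replicate 4, at 84.9 FPKM in Apc_KO replicate 1 and at 0 in the other Apc_KO libraries. Col6a1, a collagen chain, read 222, 554, 49.0 and 0 FPKM in Apc_HET and is listed at 0 in all Apc_KO libraries. Cdh11, a mesenchymal cadherin, read 29.9, 314, 135 and 0.461 FPKM in Apc_HET and 0.250 to 3.16 FPKM in Apc_KO. Tnc, the matrix protein tenascin C, read 101, 187, 170 and 6.27 FPKM in Apc_HET, and Mrc2, a collagen receptor, 29.0, 40.0, 50.2 and 0 FPKM.

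These genes overlapped between the genotypes. The calls were lost without single libraries: for Col6a1 without any 1 of 7 libraries (log2 difference -5.64 to -4.48, unchanged from -5.64 where an Apc_KO library was left out, adjusted p = 0.0570 to 0.0985), for Cdh11 without Apc_HET replicate 2 or 3 or Apc_KO replicate 4, for Tnc without Apc_HET replicate 1, 2 or 3 or Apc_KO replicate 1 or 2, and for Mrc2 without Apc_HET replicate 2 or 3. With Apc_HET replicate 4 alone, the differences of Cdh11 (0.52) and Mrc2 (0.19) changed sign and none of Col6a1, Cdh11, Tnc and Mrc2 was called. The deposited loci of these genes were short, 3.7% of the gene for Postn, 4.1% for Col6a1, 0.3% for Cdh11, 7.7% for Tnc and 4.2% for Mrc2, so the FPKM rests on small stretches. Over the 40 genes that differed at least 4-fold between Apc_HET and Apc_WT, 37 of them higher in Apc_HET, the median locus spanned 17.4% of the gene, against 99.9% over all genes tested. In 30 of the 37, Apc_HET replicate 4 lay below the other 3 Apc_HET libraries. Whether other cells or the short loci gave these values was not tested. In the same 3 libraries Lox, a collagen cross-linking enzyme, read 9.51, 11.8 and 2.09 FPKM, against 1.17 FPKM in Apc_HET replicate 4, and it is listed at 0 in Apc_KO, with a locus over 42.5% of the gene. With Apc_HET replicate 4 alone, Lox was not called (log2 difference -1.12, adjusted p = 0.198).

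**Figure D3:**
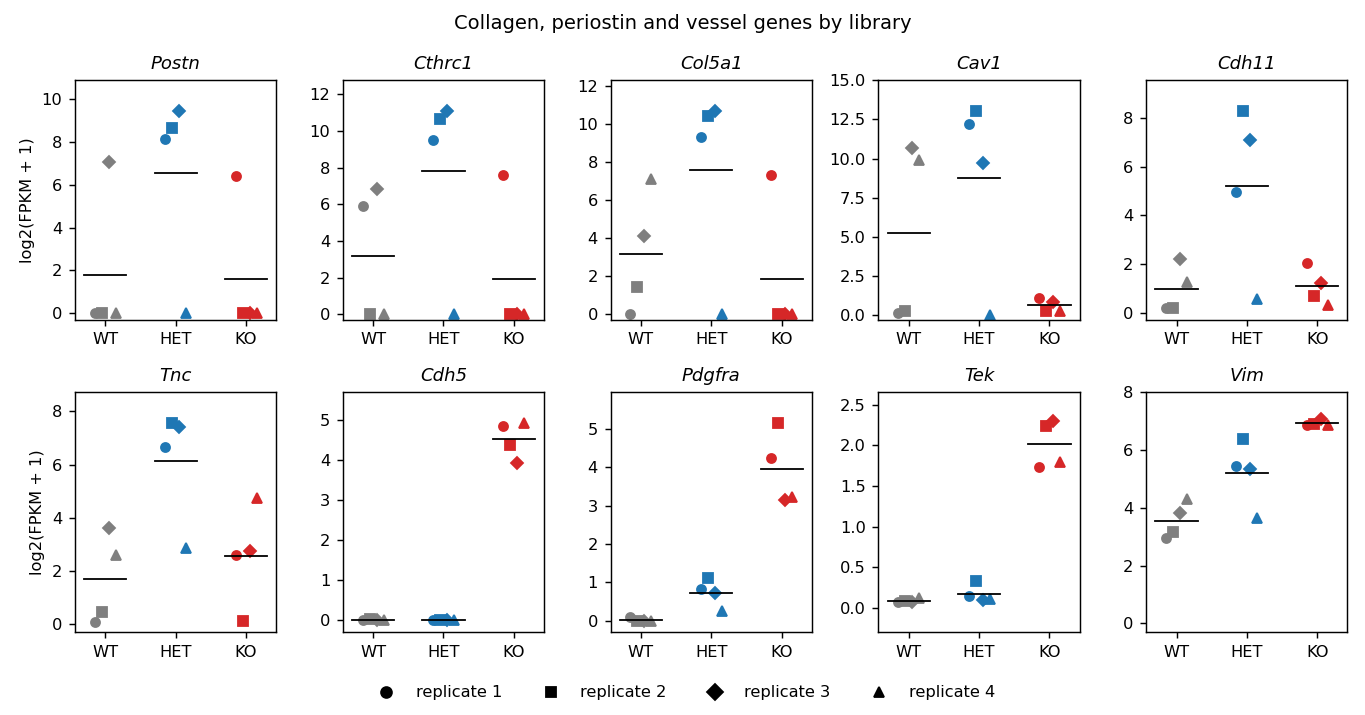
Levels of 10 genes of matrix, fibroblasts and vessels as log2(FPKM + 1) in every library, with marker shapes for replicate numbers and a black line at the mean of 4. Postn, Cthrc1, Col5a1, Cav1, Cdh11 and Tnc are high in Apc_HET replicates 1 to 3 and low or at 0 in replicate 4, whereas Cdh5, Pdgfra, Tek and Vim are higher in all 4 Apc_KO libraries than in any Apc_HET library.

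Some vessel, muscle and stroma markers were higher in Apc_KO. Of 28 listed, 13 were tested, 9 rose and 2 fell. Of the 13, 6 passed the filter only with Apc_KO libraries, where they had to be high, so the count has no weight as a share of the list. Cdh5, the cadherin of endothelial junctions, read 0.00674, 0, 0.00791 and 0 FPKM in Apc_HET and 27.6, 19.7, 14.2 and 29.3 FPKM in Apc_KO, in the second-copy class. Tek, an endothelial receptor kinase chosen from its values, read 0.0683 to 0.258 FPKM in Apc_HET and 2.34 to 3.93 FPKM in Apc_KO. Pdgfrb, a pericyte receptor with a locus of 11.3% of the gene, fell by 2.09 (SE 0.34). The list's per-library median ran from 0.97 to 1.74 in Apc_HET and from 2.39 to 3.04 in Apc_KO. This median covers the same 13 genes, so it too has no weight for the list. Prox1, given above with the other Wnt targets, had the largest rise in this list as well. Col1a1 and Pdgfrb were the defining stroma markers that were found, and the ranges of their sum in Apc_HET and Apc_KO overlapped. The part of other cell types in these rises was not tested, and in bulk RNA more cells of a type and more RNA per cell cannot be told apart. Among 39 claudin, junction and keratin genes, 14 rose and 14 fell, beside 22.8% higher and 18.9% lower over all genes. Of the 39, 7 passed the filter only with Apc_KO libraries.

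Factors that give the intestine its identity fell with the second copy. Of 40 tested, 22 fell, 7 rose and 11 were not called, with a median of -0.60, against 0.10 for the first copy, and 19 departed. Vdr (chromosome 15, 97854427 to 97908296), the vitamin D receptor, read 188, 204, 214 and 198 FPKM in Apc_HET and 6.89, 15.9, 22.1 and 4.40 FPKM in Apc_KO. All Apc_KO libraries were below all Apc_HET libraries, and it fell by 4.15 (SE 0.35, adjusted p = 2.08e-06) after a first step of 0.20 (95% interval -0.57 to 0.97). Hnf4a, a nuclear receptor that runs the enterocyte programme, read 306, 305, 267 and 294 FPKM in Apc_HET and 84.5, 102, 129 and 60.9 FPKM in Apc_KO. Its relative Hnf4g read 30.5 to 66.6 FPKM against 5.66 to 11.4 FPKM. The caudal factors Cdx1 and Cdx2, which specify the intestine, fell by 1.33 (SE 0.11) and 1.06 (SE 0.14). These 4 genes were chosen from their values, did not overlap between genotypes and were in the second-copy class. Grhl3, a factor of stratified epithelia, rose by 3.37 (SE 0.29), from 0.0388 to 2.08 FPKM to 13.0 to 25.4 FPKM. In the list of the vitamin D receptor and its targets, 6 of 10 fell, 0 rose and 1 departed.

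The second-copy class was also read against promoter sequence, using 300 bases per listed start (250 before and 50 after it) from RefSeq on GRCm38.p6. At least 1 such promoter was found for 9867 of the 12962 genes tested. Letters for 4 factors were searched on both strands, a choice made with earlier results known. A gene with several listed starts counted when any of its promoters held the letters. Shares of all promoters are counted per promoter, so they are not directly comparable with the shares of genes. Among genes with a promoter, the letters CAAAGTCCA, of the HNF4 site, were found for 10 of 473 genes lower in the class (2.11%). They were found for 1 of 672 of those higher (0.149%) and for 0.598% of all tested genes, while 0.475% of all promoters held them. Of the other letters, CTTTGAT or CTTTGAA (TCF and LEF) were in 7.30% of tested genes, 7.44% of the class higher and 10.1% of the class lower, and can overlap the HNF4 letters, which read TGGACTTTG on the other strand. TGANTCA (AP-1) was in 6.35%, 9.38% and 11.2%, and CATTCCA (TEAD) in 3.81%, 5.80% and 4.86%, of all promoters in 7.81% and 4.29%. TCF and LEF letters were in 8.65% of all promoters. A match describes letters and is no binding site.

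The promoters below are those of the 4 genes of the class with the HNF4 letters that fell most, shown because the ratio of shares between the directions of the class is largest for these letters. That ratio rests on 10 genes and 1 gene, and in percentage points the TCF and LEF letters differed more. H2-T3 is a non-classical MHC class I gene (chr17:36190102-36190401, minus strand), Trim31 a ubiquitin ligase gene (chr17:36897880-36898179, plus strand), Btnl2 a butyrophilin-like gene (chr17:34354572-34354871, plus strand) and B3gnt3 a gene for a sugar transferase of mucin-type glycans (chr8:71701751-71702050, minus strand). Capitals mark the HNF4 letters on either strand, and each run is 5′ to 3′ along its gene.
H2-T3: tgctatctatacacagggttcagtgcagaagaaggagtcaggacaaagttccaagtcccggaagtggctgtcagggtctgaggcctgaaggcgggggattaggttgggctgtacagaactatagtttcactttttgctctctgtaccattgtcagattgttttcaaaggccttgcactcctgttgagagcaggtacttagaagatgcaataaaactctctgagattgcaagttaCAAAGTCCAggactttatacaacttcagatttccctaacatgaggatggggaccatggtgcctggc
Trim31: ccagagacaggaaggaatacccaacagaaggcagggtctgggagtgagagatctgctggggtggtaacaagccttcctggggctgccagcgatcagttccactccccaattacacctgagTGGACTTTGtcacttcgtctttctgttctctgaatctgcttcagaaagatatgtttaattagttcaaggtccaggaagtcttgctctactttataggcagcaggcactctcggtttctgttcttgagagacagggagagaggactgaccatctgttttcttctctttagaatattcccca
Btnl2: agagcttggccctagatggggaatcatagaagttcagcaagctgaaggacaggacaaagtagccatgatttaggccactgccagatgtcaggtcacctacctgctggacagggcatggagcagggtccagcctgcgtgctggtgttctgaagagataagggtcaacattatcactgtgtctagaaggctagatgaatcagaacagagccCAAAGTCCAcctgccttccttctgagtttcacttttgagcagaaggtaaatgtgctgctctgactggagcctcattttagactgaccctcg
B3gnt3: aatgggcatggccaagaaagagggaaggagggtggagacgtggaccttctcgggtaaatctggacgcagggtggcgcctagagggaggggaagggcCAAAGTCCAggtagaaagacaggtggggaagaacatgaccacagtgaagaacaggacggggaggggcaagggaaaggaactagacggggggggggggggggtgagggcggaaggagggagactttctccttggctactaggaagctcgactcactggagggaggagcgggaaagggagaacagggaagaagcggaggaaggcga
In H2-T3 and Btnl2 the letters begin 16 and 41 bases before the start, and in Trim31 and B3gnt3 130 and 154 bases before it. H2-T3 read 40.5, 34.3, 31.7 and 44.7 FPKM in Apc_HET and 0.481, 3.29, 3.21 and 1.12 FPKM in Apc_KO, a fall of 3.81 (SE 0.31). Btnl2, chosen from its values, read 14.7, 11.3, 11.1 and 14.7 FPKM against 0.796, 1.65, 1.28 and 1.08 FPKM. Trim31 fell by 2.99 (SE 0.23) and B3gnt3 by 1.88 (SE 0.16), both named by the letters in their promoters. None of the 4 overlapped between the genotypes.

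The falls in class I antigen presentation were wider than H2-T3. Of 26 tested genes of MHC class I and the immunoproteasome, 13 fell, 0 rose and 13 were not called, with a median of -0.74 against 0.11 for the first copy, and 11 departed. B2m, the invariant chain of class I molecules, read 278, 275, 360 and 233 FPKM in Apc_HET and 75.6, 119, 144 and 136 FPKM in Apc_KO, chosen from its values. It fell by 1.29 (SE 0.20) without overlap. H2 genes are near-identical copies whose reads the authors' counting could divide, so single members are uncertain.

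Most MHC class II genes fell with the second copy, from levels that were high in Apc_HET replicates 1 to 3. These genes present antigen to CD4 T cells and are also expressed by intestinal stem cells. H2-Aa (chromosome 17, 34282744 to 34287823), the alpha chain, read 98.1, 91.5, 206 and 58.3 FPKM in Apc_HET and 7.32, 12.2, 10.2 and 6.64 FPKM in Apc_KO, against 43.2 ± 13.2 FPKM (SD, n = 4) in Apc_WT. All Apc_KO libraries were lower than all Apc_HET libraries, among which replicate 3 was the highest. It fell by 3.39 (SE 0.35, adjusted p = 8.69e-06), while the first step was 1.27 (95% interval 0.52 to 2.03, not called), and the departure was -4.66 (adjusted p = 0.000267). Cd74, the invariant chain, read 486, 493, 875 and 313 FPKM in Apc_HET and 104, 107, 88.0 and 76.8 FPKM in Apc_KO, a fall of 2.43 (SE 0.28). H2-Ab1, the beta chain, fell by 3.09 (SE 0.36). No class II gene was called between Apc_HET and Apc_WT, and Apc_HET replicate 4 lay within the Apc_WT range for Cd74 (196 to 347 FPKM) and H2-Ab1 (70.1 to 155 FPKM). Ciita, the transactivator of the class II genes chosen from its values, read 4.12, 4.12, 8.32 and 3.51 FPKM against 0.702, 0.653, 0.571 and 0.226 FPKM. Of 11 tested genes, 8 fell and 1 rose, with a median of -1.93 and 8 departures. The riser was Rfxap, a subunit of the RFX complex, by 0.50 (SE 0.14), a call lost with Apc_HET replicate 4 alone, where the difference was 0.65 (adjusted p = 0.113). Leukocyte markers did not rise beside these genes in Apc_HET: they summed to 4.39 to 5.10 FPKM in Apc_WT and 4.24 to 5.02 FPKM in Apc_HET. In the leukocyte list, 1 of 11 tested genes rose and 1 fell. Itgam, the integrin CD11b of myeloid cells, read 2.54, 2.87, 2.37 and 3.36 FPKM in Apc_HET and 0.197, 0.362, 0.605 and 0.225 FPKM in Apc_KO. Kit, a receptor kinase of mast cells and of some epithelial cells, rose by 1.58 (SE 0.13), from 5.70 to 7.72 FPKM to 18.6 to 24.8 FPKM.

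Interferon response genes did not follow. Of 44 tested, 18 rose, 8 fell (5 without Apc_HET replicate 2 or 3) and 18 were not called, with a median of 0.40. Over all genes 22.8% were higher and 18.9% lower, so the share that fell was near that over all genes. Of the 44, 8 passed the filter only with Apc_KO libraries, where they had to be high. Irf8, a transcription factor of immune cells and epithelium, read 53.8, 46.3, 56.3 and 49.4 FPKM in Apc_HET and 26.4, 17.8, 22.7 and 22.6 FPKM in Apc_KO and fell by 1.17 (SE 0.12). Cxcl10, a chemokine that interferon switches on, read 9.80, 8.49, 25.1 and 2.33 FPKM in Apc_HET and 105, 92.4, 44.5 and 13.6 FPKM in Apc_KO. It rose by 2.38 (SE 0.66, adjusted p = 0.0124) with overlap through Apc_KO replicate 4.

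Chemokines and antimicrobial sensors of the epithelium changed in both directions. Of 44 tested, 24 fell, 10 rose and 10 were not called, with a median of -0.66 and 23 departures. Ccl28, a chemokine that draws antibody-secreting cells, read 39.4, 49.0, 44.7 and 39.6 FPKM in Apc_HET and 0.830, 3.10, 3.45 and 0.510 FPKM in Apc_KO. It fell by 4.05 (SE 0.30, adjusted p = 7.14e-07). Cxcl2, a neutrophil chemokine, rose by 3.74 (SE 0.36), from 0.0156 to 0.419 FPKM in Apc_HET to 34.9, 18.0, 9.55 and 7.09 FPKM in Apc_KO. Both were without overlap and in the second-copy class. Among immediate early and heat shock genes, 6 of 30 rose and 2 fell, against 22.8% higher and 18.9% lower over all genes. The share that rose was thus near that over all genes. Hspb8, a small heat shock protein, rose by 3.66 (SE 0.22), from 0.236 to 0.881 FPKM to 13.4 to 28.1 FPKM. Ier5, an immediate early gene, read 111.8, 92.8, 134 and 60.3 FPKM in Apc_HET and 66.0, 64.0, 53.9 and 39.5 FPKM in Apc_KO with overlap, and its call (adjusted p = 0.0282) was lost without Apc_HET replicate 1, 2 or 3 or Apc_KO replicate 3 or 4, with differences of -0.81 to -0.63 (adjusted p up to 0.0829).

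**Figure D4:**
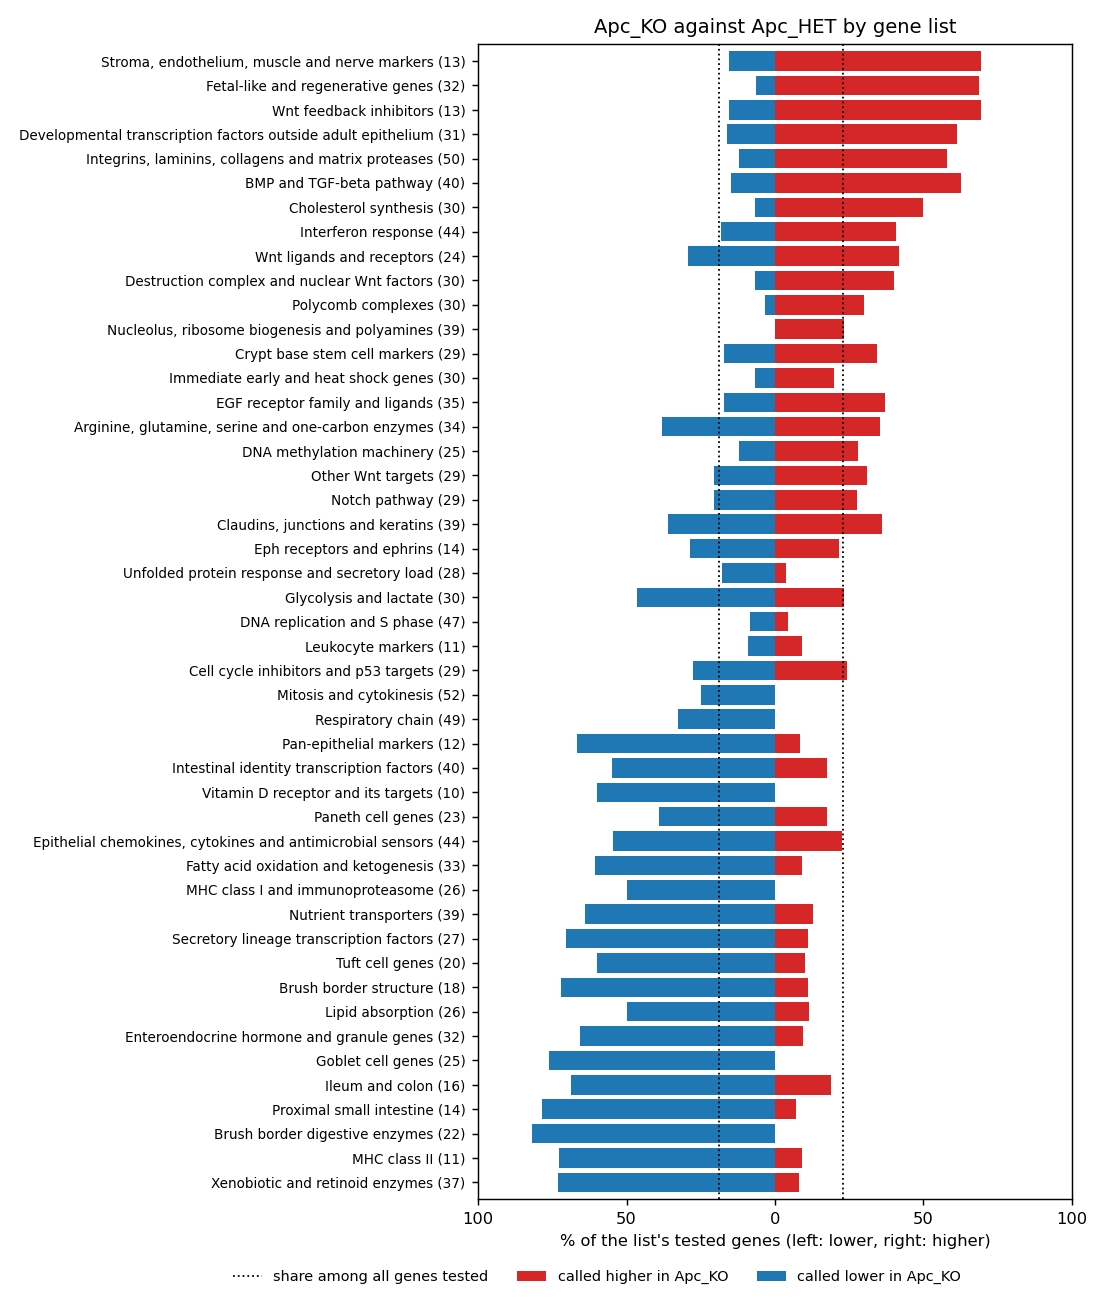
Percent of each list's tested genes (number in brackets) called higher (red, right) or lower (blue, left) in Apc_KO against Apc_HET, ordered by list median, for lists with at least 10 tested genes. Dotted lines give the share over all genes tested, 22.8% higher and 18.9% lower. Fetal-like genes, Wnt feedback inhibitors and stroma and vessel markers lead the higher side, and xenobiotic enzymes, MHC class II and brush border enzymes the lower. In the leading higher lists 7 of 32, 4 of 13 and 6 of 13 genes passed the filter only with Apc_KO libraries. Such genes had to be high there, so the higher shares of these lists cannot be ranked or compared with the dotted line.

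Most secretory lineage factors and goblet and enteroendocrine genes fell. Of 27 tested lineage factors, 19 fell, 3 rose and 5 were not called, with a median of -0.91 against 0.30 for the first copy, and 14 departed. Atoh1, the factor that commits cells to the secretory fate, read 11.3, 13.6, 13.1 and 11.8 FPKM in Apc_HET and 3.85, 2.43, 3.91 and 0.801 FPKM in Apc_KO. It fell by 1.95 (SE 0.26, adjusted p = 7.48e-05) and was in the second-copy class. Foxa1, a forkhead factor, rose by 1.48 (SE 0.21), from 13.8 to 30.9 FPKM to 41.0 to 64.5 FPKM.

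Of 25 goblet cell genes, 19 fell and 0 rose, with a median of -1.39 and 12 departures. Clca3, a secreted goblet cell protein, read 130, 91.1, 98.8 and 115 FPKM in Apc_HET and 0.421, 17.8, 23.96 and 2.70 FPKM in Apc_KO. Apc_KO replicates 1 and 4 were lower than replicates 2 and 3, and a departure was not shown (adjusted p = 0.057). Of 32 enteroendocrine genes, 21 fell and 3 rose, with a median of -1.33 and 14 departures. Gip, an incretin hormone, read 207, 161, 240 and 166 FPKM against 0.945, 38.6, 12.05 and 2.15 FPKM, and Gcg, the glucagon precursor, 66.6, 76.3, 91.8 and 80.6 FPKM against 0.466, 11.4, 8.27 and 0.0411 FPKM. Pcsk1n, a granule protein, went the other way and rose by 1.45 (SE 0.38), with a locus of 74.5% of the gene. With Apc_HET replicate 4 alone Gip, Clca3 and Pcsk1n were not called (adjusted p = 0.0585, 0.0552 and 0.209), where their log2 differences were -4.48, -4.04 and 1.40.

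Tuft and Paneth lists were less uniform. Of 20 tuft cell genes, 12 fell and 2 rose, with 3 departures. Of the 3 tuft markers found, Dclk1 and Trpm5 were called lower and Avil higher. Their summed level went from 14.0 to 29.8 FPKM in Apc_HET to 57.5 to 111 FPKM in Apc_KO, where most of the sum was Avil. Avil, which encodes the actin-binding protein advillin, read 8.23, 10.98, 5.63 and 4.82 FPKM in Apc_HET and 59.4, 56.7, 53.4 and 107 FPKM in Apc_KO, a rise of 3.06 (SE 0.25). Of 23 Paneth cell genes, 9 fell, 4 rose and 10 were not called, beside 18.9% lower and 22.8% higher over all genes. Pla2g2a, named for an antimicrobial phospholipase, read 9.69, 14.3, 8.52 and 9.84 FPKM in Apc_HET and 313, 191, 179 and 601 FPKM in Apc_KO. The log2 rise was 4.64 (SE 0.34). RefSeq lists this gene as a transcribed pseudogene, so the rise is one of RNA and does not show more enzyme. Guca2a, the hormone guanylin, fell by 3.11 (SE 0.39), from 91.2 to 123 FPKM to 4.20 to 24.02 FPKM. Lyz1, the Paneth cell lysozyme chosen from its values, was not called (adjusted p = 0.279), with 1365 to 2895 FPKM in Apc_HET and 608 to 2813 FPKM in Apc_KO.

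The absorptive programme was lower in Apc_KO, but much of it was already lower in some Apc_HET libraries. Of 22 brush border digestive enzymes, 18 fell and 0 rose, with a median of -1.78 for the second copy and -0.94 for the first. Only 5 of the 22 departed from equal steps. Sis, sucrase-isomaltase, read 90.3, 54.7, 27.4 and 147 FPKM in Apc_HET and 2.27, 11.6, 5.72 and 6.83 FPKM in Apc_KO, against 137 ± 77.8 FPKM (SD, n = 4) in Apc_WT. It fell by 3.32 (SE 0.53), its first step was -0.88 (95% interval -2.03 to 0.27), and a departure was not shown (adjusted p = 0.0928). The list's per-library median was 4.18, 3.24, 2.88 and 4.20 in Apc_HET replicates 1 to 4, 4.18 to 5.33 in Apc_WT and 1.36 to 2.09 in Apc_KO. Apc_HET replicates 2 and 3 were thus below every Apc_WT library, and Apc_WT replicate 4 was the highest of all.

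Other absorptive lists showed the same order of medians. Of 37 xenobiotic and retinoid enzymes, 27 fell and 3 rose, with a first-copy median of -0.56 and 15 departures. Ces1f, a carboxylesterase, read 43.4, 18.6, 8.62 and 45.0 FPKM in Apc_HET and 0.243, 2.47, 1.37 and 0.682 FPKM in Apc_KO. Aldh1a2, a retinoic acid synthesis enzyme, rose by 2.63 (SE 0.33), from 0, 0.0136, 2.08 and 0 FPKM to 4.94 to 10.1 FPKM. Of 39 nutrient transporters, 25 fell and 5 rose, with medians of -0.91 and -0.43. Slc9a3, a sodium-proton exchanger, rose by 3.25 (SE 0.42), from 5.00 to 25.9 FPKM to 93.3 to 189 FPKM. Of 26 lipid absorption genes, 13 fell and 3 rose, with medians of -1.10 and -0.47. Tm4sf5, a tetraspan membrane protein, fell by 3.06 (SE 0.34), and Abca1, a cholesterol exporter, rose by 2.07 (SE 0.26).

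Structural genes of the brush border fell with little first step. Of 18 tested, 13 fell and 2 rose, with medians of -1.07 for the second copy and -0.19 for the first, and 6 departed. Prap1, a secreted proline-rich acidic protein of the epithelium, fell by 2.36 (SE 0.35), whereas Ezr, the microvillus linker ezrin, rose by 0.63 (SE 0.11), from 78.0 to 98.2 FPKM to 119 to 146 FPKM. Of 12 pan-epithelial markers, 8 fell and 1 rose. Cdh17, the intestinal cadherin, fell by 1.48 (SE 0.21). Krt18, a keratin, rose by 0.99 (SE 0.29) with overlap, a call lost without Apc_HET replicate 4 (0.79, adjusted p = 0.0533), and Epcam, chosen from its values, was not called (log2 difference 0.01, adjusted p = 0.972).

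Markers of both ends of the intestine fell. Of 14 proximal genes, 11 fell and 1 rose, with a median of -1.75, and of 16 ileum and colon genes, 11 fell and 3 rose, with a median of -1.63. Cybrd1, the duodenal iron reductase, rose by 1.49 (SE 0.16), from 0.324 to 0.654 FPKM to 2.46 to 4.12 FPKM. Car4, a carbonic anhydrase of the distal gut, fell by 3.84 (SE 0.40), from 62.5, 25.0, 17.9 and 62.1 FPKM to 0.887 to 3.30 FPKM. The region of intestine that each mouse's cells came from is not given.

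**Figure D5:**
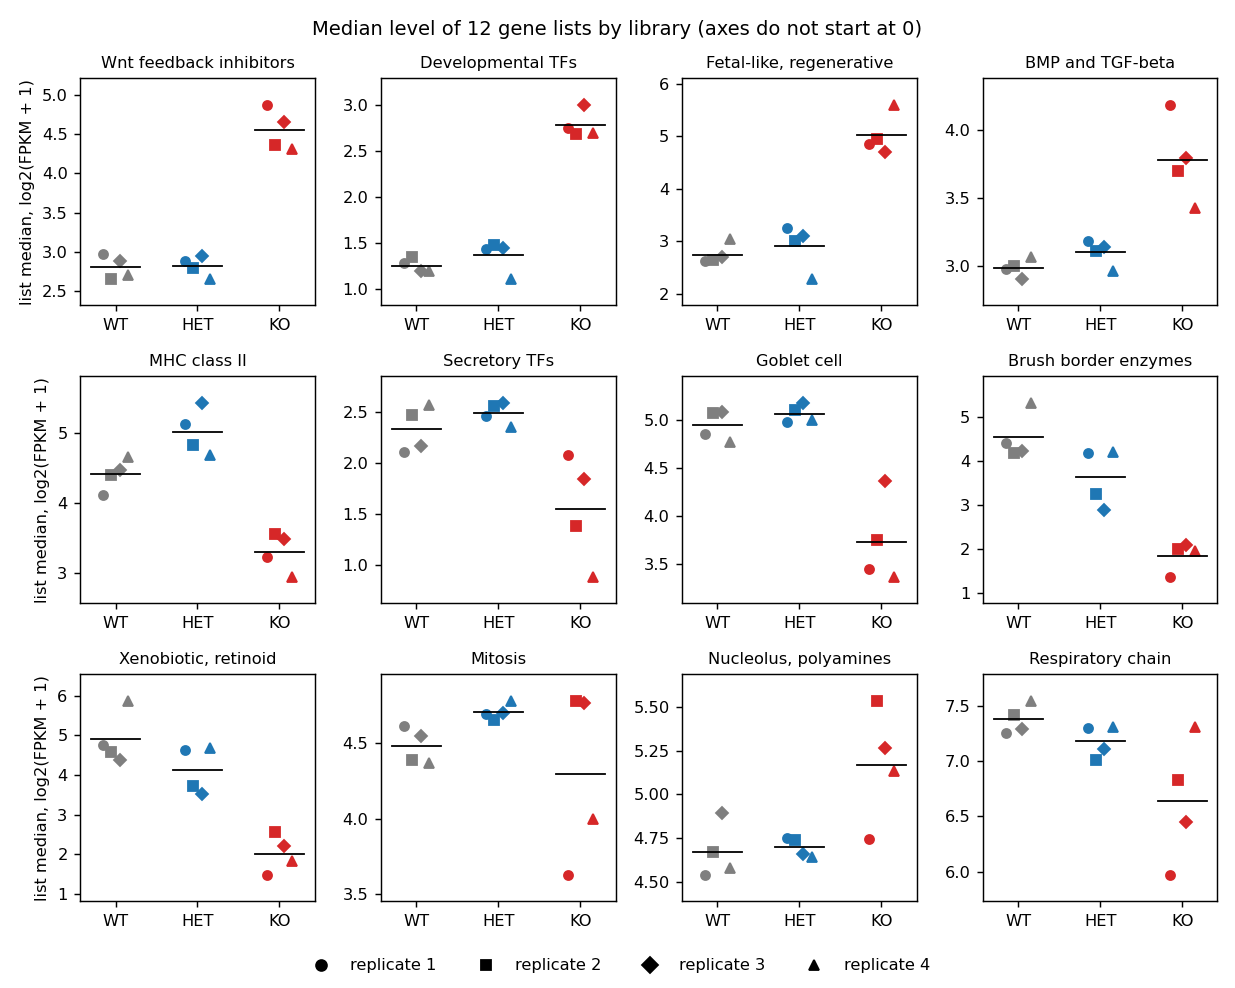
Median log2(FPKM + 1) of 12 gene lists in every library, by genotype, with marker shapes for replicate numbers and a black line at the mean of 4 libraries. The Wnt feedback, developmental, fetal-like and BMP lists step up in Apc_KO, with Apc_HET medians close to those of Apc_WT except in the fetal-like list. There the Apc_HET medians spread from 2.27 in replicate 4 to 3.25, against 2.62 to 3.04 in Apc_WT. In the lists that step up, 4 of 13, 12 of 31, 7 of 32 and 8 of 40 genes passed the filter only with Apc_KO libraries. Such genes had to be high there, so the filter itself favours a step up in these lists. Brush border and xenobiotic lists are lower in Apc_HET replicates 2 and 3 than in any Apc_WT library, and the mitosis list is low in Apc_KO replicates 1 and 4.

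Cell cycle lists depended on which Apc_KO libraries were read. Of 52 mitosis genes, 13 fell, 0 rose and 39 were not called, with a median of -0.41. Over all genes 18.9% were lower and 22.8% higher. Their per-library median was 4.65 to 4.79 in Apc_HET, 4.78 and 4.77 in Apc_KO replicates 2 and 3, and 3.63 and 4.00 in replicates 1 and 4. Without replicates 1 and 4, a setting chosen after seeing the data, 8 rose and 5 fell with a median of 0.06, and among 47 replication genes 14 rose and 3 fell with a median of 0.28, in place of 2 and 4 with -0.19. Leaving out 1 library, the mitosis genes that fell numbered 21 and 22 without Apc_KO replicates 2 and 3 and 8 without Apc_KO replicate 4. They numbered 7, 8, 8 and 6 without Apc_HET replicates 1 to 4 in turn. The replication genes that fell numbered 9 and 8 without Apc_KO replicates 2 and 3. Kif23, a kinesin of cytokinesis, read 50.9, 50.8, 49.8 and 57.0 FPKM in Apc_HET and 13.1, 27.3, 31.0 and 16.1 FPKM in Apc_KO and fell by 1.29 (SE 0.23). E2f2, an E2F factor of S phase, fell by 1.54 (SE 0.25), and Rfc3, a clamp loader subunit, rose by 0.79 (SE 0.14).

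Among cell cycle inhibitors and p53 targets 7 of 29 rose and 8 fell, near the 22.8% and 18.9% over all genes. Cdkn1c, the inhibitor p57, read 6.43, 5.90, 5.67 and 5.22 FPKM in Apc_HET and 35.7, 31.1, 38.0 and 58.1 FPKM in Apc_KO and rose by 2.58 (SE 0.20). Sesn1, a sestrin that p53 switches on, fell by 1.65 (SE 0.17). Of 39 genes of the nucleolus, ribosome biogenesis and polyamines, 9 rose, near the 22.8% over all genes, and 0 fell and 0 departed. Of these 39, 18 rose without Apc_KO replicate 1 and 5 without Apc_KO replicate 2. Eif4ebp1, a brake on cap-dependent translation, rose by 0.998 (SE 0.20), a call lost with Apc_HET replicate 4 alone, where the difference was 1.11 (adjusted p = 0.0614). The unfolded protein response list was mostly still, with 22 of 28 not called and 5 lower, or 3 without Apc_HET replicate 1, 2 or 3 or Apc_KO replicate 4. The share of 5 in 28 was near the 18.9% lower over all genes. Ern2, an endoplasmic reticulum stress sensor of goblet cells, fell by 1.02 (SE 0.21), and Trib3, a pseudokinase of that response, rose by 0.88 (SE 0.23).

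DNA methylation, which the study followed beside expression, depends on writers, erasers and readers. Of 25 such genes tested, 7 rose, 3 fell and 15 were not called, with a median of 0.09, shares not far from the 22.8% higher and 18.9% lower over all genes. Dnmt1, the maintenance methyltransferase, read 53.5, 52.2, 48.4 and 55.2 FPKM in Apc_HET and 25.4, 52.3, 58.8 and 28.3 FPKM in Apc_KO. The groups overlapped, replicates 1 and 4 of Apc_KO were the low ones, and the difference of -0.43 (adjusted p = 0.214) became 0.084 without them. Zbtb4, a zinc finger protein that binds methylated DNA, rose by 1.26 (SE 0.16), and Ahcy, which clears the methylation by-product, fell by 0.76 (SE 0.19). Of 30 Polycomb genes, 9 rose (14 without Apc_KO replicate 4) and 1 fell. Scmh1, a Polycomb repressor subunit, rose by 1.16 (SE 0.16), and Pcgf5, another subunit, fell by 0.32 (SE 0.10), a call lost without Apc_HET replicate 4 (-0.30, adjusted p = 0.0522).

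Metabolic genes changed in patterns that differed by pathway. In glycolysis and lactate metabolism 14 of 30 fell and 7 rose, beside 18.9% lower and 22.8% higher over all genes. The share that rose was thus near that over all genes. Aldoc, the brain-type aldolase, read 2.46, 1.71, 1.67 and 2.08 FPKM in Apc_HET and 30.0, 20.5, 20.0 and 37.6 FPKM in Apc_KO and rose by 3.19 (SE 0.23). Fbp1, an enzyme of gluconeogenesis, fell by 2.53 (SE 0.18), from 15.3 to 21.8 FPKM to 2.04 to 2.47 FPKM. Both were in the second-copy class and did not overlap. Pkm, pyruvate kinase, was chosen from its values and averaged 406 FPKM in Apc_HET and 1106 FPKM in Apc_KO.

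Of 33 genes of fatty acid oxidation and ketogenesis, 20 fell and 3 rose, with a median of -0.70, against -0.05 for the first copy, and 14 departed. Ppara, the nuclear receptor that governs the pathway, read 10.3, 7.91, 5.56 and 11.4 FPKM in Apc_HET and 0.525, 0.778, 1.09 and 0.517 FPKM in Apc_KO and fell by 2.47 (SE 0.20). Acsl4, an acyl-CoA synthetase, rose by 2.27 (SE 0.17). Of 49 respiratory chain genes, 16 fell and 0 rose, with 33 not called and 3 departures. The count that fell was 42 without Apc_KO replicate 4, 10 without Apc_HET replicate 1, 31 without Apc_KO replicates 1 and 4 and 4 with Apc_HET replicate 4 alone, and the median stayed below 0 in these settings. Sdha, a subunit of complex II, fell by 1.09 (SE 0.16), from 208 to 263 FPKM to 85.9 to 140 FPKM. The list's per-library median in Apc_KO ran from 5.97 in replicate 1 to 7.31 in replicate 4, the latter within the Apc_HET range of 7.01 to 7.31.

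In cholesterol and fatty acid synthesis 15 of 30 rose and 2 fell, with a median of 0.47. Scd1, a fatty acid desaturase, read 0.0955, 0.0808, 0.0462 and 0.270 FPKM in Apc_HET and 14.8, 20.8, 18.3 and 12.8 FPKM in Apc_KO and rose by 3.96 (SE 0.17, adjusted p = 1.51e-08). Elovl6, a fatty acid elongase, fell by 1.06 (SE 0.28). In amino acid and one-carbon metabolism 12 of 34 rose and 13 fell, beside 22.8% higher and 18.9% lower over all genes. Cps1, the first enzyme of the urea cycle, read 765, 831, 827 and 800 FPKM in Apc_HET and 21.7, 96.0, 107 and 12.2 FPKM in Apc_KO, and it fell by 4.26 (SE 0.55) with all Apc_KO libraries below Apc_HET and replicates 1 and 4 lowest. Aldh1l2, a mitochondrial folate enzyme, rose by 2.13 (SE 0.30), but its locus covers 1.3% of the gene.

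Among the other large falls, Aadac, an esterase, read 59.8, 45.4, 44.5 and 62.5 FPKM in Apc_HET and 1.09, 5.18, 3.44 and 1.53 FPKM in Apc_KO and fell by 3.94 (SE 0.31), in the second-copy class. Slc1a1, a glutamate transporter with a locus of 11.8% of the gene, read 1079, 571, 492 and 1084 FPKM in Apc_HET and was near or at 0 in 3 Apc_KO libraries but at 196 FPKM in replicate 2. Zmat1, a zinc finger gene with a locus of 2.2% of the gene, read 649, 677, 677 and 911 FPKM against 6.04, 83.1, 157 and 31.9 FPKM. For these last 2 genes the level rests on a short stretch of the gene.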

How the data were processed

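RNA of 12 libraries was measured, 4 per genotype. The authors deposited 1 FPKM table per library, per the file headers. Per the submitters' processing notes, Cufflinks, Cuffdiff, TopHat and Bowtie were used with build mm10; versions, annotation and filters are not given in the sources used here. FPKM was summed per gene symbol. Of 14499 symbols, 295 with loci unlike between genotypes and 122 with a failed estimate were dropped, which removed 31 list genes. Genes with 1 FPKM or more in at least 4 libraries were kept. Differences were tested in 1 limma 3.58.1 fit (R 4.3.3; lmFit, contrasts.fit, eBayes with trend) of log2(FPKM + 1) over all 12 libraries, two-sided, adjusted by Benjamini-Hochberg over 12962 genes, and called at an adjusted p under 0.05. Every log2 difference and adjusted p in the text comes from this fit unless a setting is named, and is on the log2(FPKM + 1) scale, which understates low genes. The script was tested on simulated data. Because FPKM is relative to each library's total, a scaling was varied.

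The members and the 47 lists (1613 genes, 1340 found, 1268 tested) were chosen with earlier results of these data known, so lists are described by counts and medians beside all genes, without a set test. Named genes are the 10 largest rises and 10 largest falls without overlap and at 5 FPKM or more, the called member of largest rise and of largest fall of each list at 2 FPKM or more, the 4 largest departures each way at 5 FPKM or more, and Apc, Lgr5, Olfm4, Axin2, Dnmt1 and Cd74. Some genes the rule names are not reported here. Genes outside this rule are marked as chosen from their values. Coordinates and the share of a gene in its locus come from RefSeq (GRCm38.p6) and are given where the share is under 80%. The labels do not say that replicate numbers pair libraries, and same-numbered libraries did not all deviate together. Alternatives varied the pseudocount, filter, scaling, weights, trend, replicate block, genotypes fitted and libraries left out.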

Additional observations from a re-analysis of the deposited data

Results flagged for a closer look

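Each named gene's groups of 4 libraries in Apc_HET and Apc_KO, 212 groups, were checked for 1 library far from the other 3 by Dixon's test at its 95% critical value. It marked 18 groups; chance marks about 1 in 20.

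Apc_HET replicate 4 accounted for 7 of them. It was lowest for Msx1 (0.0679 FPKM), Rfc3 (32.7 FPKM), Eif4ebp1 (21.1 FPKM), Rfxap (9.18 FPKM) and Mrc2 (0 FPKM), and highest for Zmat1 (911 FPKM) and Kif23 (57.0 FPKM). Apc_HET replicate 3 was highest for Sox17 (0.0182 FPKM), Prox1 (4.08 FPKM), Aldh1a2 (2.08 FPKM) and Ltbp4 (0.878 FPKM), all of which stayed below every Apc_KO library. Apc_HET replicate 1 was lowest for Dtx3 (2.72 FPKM) and Apc_HET replicate 2 for Slc38a3 (0.0496 FPKM).

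In Apc_KO, replicate 4 was lowest for Tle4 (4.76 FPKM), Foxa1 (41.0 FPKM) and Bmp3 (0.248 FPKM) and highest for Avil (107 FPKM). Replicate 2 was highest for Slc1a1 (195.8 FPKM), where the other 3 libraries lay between 0 and 0.157 FPKM.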

How the results depend on the processing

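Of 106 named genes, 85 kept direction and call in all 24 other settings and 18 lost the call in at least 1. With Apc_HET replicates 1 to 3 left out, chosen after seeing the data, 1541 genes were higher and 1104 lower, 294 departed, the second-copy class held 148 higher and 53 lower, and Cdh11 (0.52) and Mrc2 (0.19) reversed; fewer libraries were fitted. Without Apc_KO replicates 1 and 4, also chosen later, 3272 were higher and 2500 lower and Dnmt1 reversed (0.084). With only loci of at least 80% of the gene, chosen later too, 2416 were higher and 2065 lower. Size factors gave 2766 higher and 2576 lower, quantile normalization 2624 and 2933. Library weights gave 3859 departures and a filter of 5 FPKM 530 genes higher in the class, with fewer genes tested in the latter. For Apc_HET against Apc_WT 1 gene was called with a pseudocount of 0.1, with only the 2 genotypes, with library weights and without Apc_KO replicate 2, 3 without Apc_WT replicate 3 and 4 without Apc_HET replicate 4. Leaving out 1 library gave 2489 to 3155 higher, 2068 to 2562 lower, 0 to 4 for the first copy, 1580 to 2636 departures, 715 to 964 and 476 to 681 in the class, and 0.17 to 0.42 for Apc. Where no reason is given, the cause was not tested.

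Same-numbered libraries did not all deviate together. The correlations were -0.091, -0.096, -0.075 and 0.072 between Apc_HET and Apc_KO for numbers 1 to 4, where 0 of 4 correlated best with their own number. Between Apc_WT and Apc_KO they were 0.180, -0.103, 0.120 and 0.150, where numbers 1, 3 and 4 did, and between Apc_WT and Apc_HET they ran from -0.195 to -0.066. With the replicate block, 2817 genes were higher, 2361 lower and 1976 departed, Lgr5 was called (0.56, adjusted p = 0.0491) and Col6a1 was not (-5.64, adjusted p = 0.0636).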
